A study of Mus musculus with 22 samples.

Results

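The cytochrome P450 genes of families 1 to 3 were examined in mouse liver: the Cyp1a, Cyp1b, Cyp2 and Cyp3a genes whose symbol ends in a subfamily letter and a number. Of 55573 genes counted, 58 matched, and the 45 with a mean of at least 10 counts over all 22 libraries were tested among 14062 genes. Each library is the liver of 1 mouse. Cre mice carry wild-type Flcn alleles and Albumin-Cre, while liver-Flcn-/- mice carry Albumin-Cre and floxed Flcn on both alleles, so both genotypes express the recombinase. The albumin promoter is active in hepatocytes, and whether the other cells of the liver keep Flcn was not tested here. Mice received a chow with 10% of its calories from fat or a methionine- and choline-deficient (MCD) diet, begun at 6 weeks of age and fed for 6 weeks, and were 3 months old. There were 6 Cre and 5 liver-Flcn-/- livers on chow, and 5 Cre and 6 liver-Flcn-/- livers on MCD.

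Cytochromes P450 are haem enzymes of the endoplasmic reticulum that insert oxygen into drugs, toxicants, steroids and fatty acids, with electrons passed on by P450 oxidoreductase. In liver they are made mainly by hepatocytes. Their transcription is driven by the aryl hydrocarbon receptor for Cyp1, by the receptors CAR and PXR for much of Cyp2b, Cyp2c and Cyp3a, and by growth hormone acting through STAT5b, whose timing gives male and female mice different sets of Cyp2 and Cyp3a enzymes.

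The 250 bases before RefSeq's start of 4 members are printed because these genes carried the main patterns: Cyp2b9 and Cyp2b13 were high in one class of chow livers, Cyp2d9 in the other, and Cyp3a57 differed with both genotype and diet. The sequences are RefSeq's on GRCm38.p6, 5′ to 3′ on the plus strand, which is the strand of all 4 genes. Capitals mark the nuclear receptor half-site AGGTCA or its reverse complement TGACCT, which the window of Cyp2d9 does not hold. For Cyp2b9, Cyp2b13 and Cyp3a57 the window ends within 10 bases of the gene start in GENCODE M21. For Cyp2d9 that annotation starts the gene at 82433437 and ends it at 82456845 on chromosome 15, so the window ends 18940 bases inside the gene as drawn there.
Cyp2b9, chr7:26173159-26173408: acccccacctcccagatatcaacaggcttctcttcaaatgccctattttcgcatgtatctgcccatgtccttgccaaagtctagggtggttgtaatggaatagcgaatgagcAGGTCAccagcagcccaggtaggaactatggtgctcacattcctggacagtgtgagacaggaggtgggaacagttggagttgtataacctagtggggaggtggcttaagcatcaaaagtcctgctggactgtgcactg
Cyp2b13, chr7:26061245-26061494: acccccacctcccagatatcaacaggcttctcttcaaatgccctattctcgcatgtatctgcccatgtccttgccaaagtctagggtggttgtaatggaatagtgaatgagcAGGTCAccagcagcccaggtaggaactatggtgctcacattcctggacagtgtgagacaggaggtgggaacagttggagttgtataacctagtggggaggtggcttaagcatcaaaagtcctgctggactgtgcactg
Cyp2d9, chr15:82452127-82452376: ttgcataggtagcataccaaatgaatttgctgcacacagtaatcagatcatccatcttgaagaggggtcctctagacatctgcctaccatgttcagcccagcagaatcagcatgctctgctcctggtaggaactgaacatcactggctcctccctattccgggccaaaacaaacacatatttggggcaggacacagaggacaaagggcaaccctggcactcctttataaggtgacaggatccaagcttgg
Cyp3a57, chr5:145345019-145345268: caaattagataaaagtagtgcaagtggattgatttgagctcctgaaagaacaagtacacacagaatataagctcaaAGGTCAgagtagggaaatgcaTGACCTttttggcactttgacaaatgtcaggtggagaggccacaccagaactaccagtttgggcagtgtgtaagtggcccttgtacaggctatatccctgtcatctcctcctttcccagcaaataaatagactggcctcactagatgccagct

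The windows of Cyp2b9 and Cyp2b13 had the same base at 248 of 250 positions (99.2%), compared position by position without alignment. Those of Cyp2b9 and Cyp2b10 did so at 26.4%. In GENCODE M21 the Cyp2b10 window ends 38 bases inside its gene, while that of Cyp2b9 ends before its gene. With this offset the 26.4% does not measure how alike the sequences are. Of the 45 tested members 39 had an entry, with 41 distinct windows, and 6 windows (of Cyp1a1, Cyp2c29, Cyp2c39, Cyp2d9, Cyp2s1 and Cyp3a11) lay more than 100 bases from the GENCODE start. AGGTCA occurred on either strand in 13 of the 41 windows (31.7%) and in 14.0% of 32536 windows of all genes. The core of the aryl hydrocarbon receptor element, GCGTG on either strand, occurred in 5 of 41 (12.2%, Cyp1a1 and Cyp1b1 among them) and in 28.3% of all windows. The STAT5 element TTCNNNGAA, which reads alike on both strands, occurred in 0 of 41 and in 7.04% of all windows. None of the 3 patterns is contained in another. These are matches of letters in short windows and no measure of binding, and windows of near-identical genes are not independent.

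Most members lie in gene clusters: of the 45, 13 are on chromosome 19, 12 on chromosome 7, 7 on chromosome 5 and 6 on chromosome 15 (GENCODE M21 on GRCm38). Close relatives can exchange reads. Of all stretches of 75 exon bases, 0 were shared with another gene for 11 members, and over 10% were shared for 15. Cyp2c40 shared 45.9%, Cyp2c69 42.6% and Cyp2c67 36%, and these 3 are neighbours on chromosome 19. Reads from such stretches could be lost from the counts or placed with a relative. How they were counted is not given in the sources used here. If they were lost, the levels of these genes are too low. Cyp2a4 shared 22.1% and Cyp2a5 22.3%, mostly with each other.

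Flcn itself was measured first. Levels are given in CPM, the reads of a gene per 1e6 reads scaled by TMM. Flcn was 26.1 to 40.2 CPM (median 31.8) in Cre livers on chow and 24.2, 20.0, 16.7, 19.4 and 21.8 CPM in liver-Flcn-/- livers on chow. On MCD Flcn was 31.7, 18.2, 39.9, 32.5 and 23.6 CPM in Cre livers and 17.6 to 32.6 CPM (median 26.6) in liver-Flcn-/- livers. Flcn was lower in liver-Flcn-/- mice on chow, with no overlap (−0.63 on the log2 scale, adjusted p = 0.0249 by edgeR), while on MCD the groups overlapped (−0.16, adjusted p = 0.567). The count covers the whole gene and all liver cells. With the overlap on MCD it does not check the labels there, and the cause of that overlap was not tested.

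The libraries fell into classes by the RNA of the sex chromosomes, and the labels do not state sex. In 12 livers Xist, the RNA of the inactive X chromosome, was at least 223 CPM, and in the other 10 it was at most 1.28 CPM while 4 Y-linked genes summed to at least 136 CPM. Each group held 3 livers with Xist RNA. Livers with Y-linked RNA numbered 3 and 2 in Cre mice (chow, then MCD) and 2 and 3 in liver-Flcn-/- mice. These classes are read from the counts and are not groups of the study. The 5 chow livers with Y-linked RNA were the 5 libraries whose uniquely mapped share was under 75%, so on chow class and mapped share cannot be told apart.

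In 5 Xist livers the Y-linked genes also summed to over 10 CPM. Their sum was 6.15% of the median of the Y-linked class in Cre Chow 2, 15.6% in Cre MCD 1, 15.1% and 6.64% in liver-Flcn-/- Chow 2 and 4, and 6.81% in liver-Flcn-/- MCD 3. Several member calls ended without these 5 libraries, and the values without them are given for those described. In Cre MCD 3 the 15 skeletal muscle genes summed to 3627 CPM and in Cre MCD 4 to 179 CPM, and in liver-Flcn-/- MCD 3 to 89.0 CPM, where the medians of the 4 groups were 5.76 to 27.8 CPM. The pancreatic acinar genes summed to 24.1 CPM in liver-Flcn-/- MCD 3 and 9.02 CPM in Cre MCD 5, and to at most 2.62 CPM elsewhere. The part of RNA from other tissues in the members' values was not tested.

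Cyp2e1, which oxidises ethanol and acetaminophen, was the most abundant member per length in all 4 groups. It made up 30.2% of the members' summed CPM per kilobase of exon in Cre livers on chow, 28.6% in liver-Flcn-/- livers on chow, 43.9% in Cre livers on MCD and 41.1% in liver-Flcn-/- livers on MCD. Next on the same scale in Cre livers on chow were Cyp2f2 (6.36%), Cyp2c70 (5.30%), Cyp2d26 (5.21%), Cyp2c29 (4.75%) and Cyp1a2 (4.60%). On MCD the next in Cre livers were Cyp2a4 (10.3%), Cyp2d26 (8.15%), Cyp3a11 (7.74%), Cyp2a5 (6.24%) and Cyp3a44 (3.00%). Of the chow list Cyp2d26 alone kept a place on this scale. The length is that of all annotated exons of a gene merged, over all its transcripts. It was 5093 bases for Cyp3a11, 2083 for Cyp3a25 and 1962 for Cyp3a44. Cyp3a11 had rank 11 in Cre livers on chow, and with the length of 1 transcript its place could differ. These orders are of group means over livers with Xist RNA and livers with Y-linked RNA, and need not hold in each class. In Cre livers on chow Cyp2c69 averaged 3.09% and ran from 0.00445% to 6.68%, while Cyp2f2 ran from 3.33% to 9.48%.

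The members together summed to 23784 ± 1781 CPM in Cre livers on chow (SD, n = 6) and 17947 ± 3164 CPM in liver-Flcn-/- livers on chow (SD, n = 5). On MCD Cre livers summed to 19294 ± 2038 CPM (SD, n = 5), whereas liver-Flcn-/- livers reached 13805 ± 1555 CPM (SD, n = 6). Thus the sum was highest in Cre livers on chow and lowest in liver-Flcn-/- livers on MCD, and these 2 groups did not overlap. In whole liver fewer hepatocytes and less RNA per hepatocyte cannot be told apart. The summed level of 6 hepatocyte genes had a median of 127232 CPM on chow and 91167 CPM on MCD in Cre livers, and 114453 and 67379 CPM in liver-Flcn-/- livers.

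Many members differed between the classes of livers on chow, and few did on MCD. On chow 15 members were higher in livers with Xist RNA (background of all genes 6.46%) and 6 were lower (5.38%), with both genotypes averaged. On MCD 2 members, Cyp2b13 and Cyp2c69, were higher (0.178%) and 0 lower (0.256%). On MCD 11 members had an unadjusted p under 0.05, 4 of them lower, and limma-voom called 3 members, 0 of them lower. The count on MCD was 0 without Cre MCD 3 and 4 without Cre MCD 1, where all genes gave 11 and 181 calls in place of 61. The difference between classes itself changed with the diet for 15 members, upward for 3 (2.6%) and downward for 12 (4.88%). Without the 5 libraries with both RNAs these 3 counts of called members were 17, 2 and 12, while those over all genes went from 1665, 61 and 1052 to 685, 28 and 443. Markers of other cells moved with the classes too, and their part in the pattern was not tested. Of 6 stellate cell genes 3 (Reln, Pdgfrb and Dcn) were higher in the Xist class on chow, and the class difference of 5 changed downward with MCD. Of 5 endothelial genes 2 (Clec4g and Kdr) and of 9 pericentral genes 2 (Axin2 and Lgr5) were higher in the Xist class on chow. Alb of the hepatocyte and Cd79a of the lymphocyte genes were also higher there, and Cdh1 of the periportal and Sox9 of the cholangiocyte genes were lower. On MCD Des of the stellate and Cd68 of the macrophage genes were lower in the Xist class. With MCD the class difference changed downward for Cd68, Pecam1 and Alb and upward for Cdh1. Of the members described next for this pattern, Cyp2b9, Cyp2b13, Cyp2a4, Cyp3a44, Cyp2u1 and Cyp2j6 were chosen after their values were seen.

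Cyp2b9, a female-predominant enzyme of the Cyp2b cluster (chromosome 7, 26173411 to 26210661, plus strand), showed the pattern most plainly. In Cre livers on chow it was 589.8, 578 and 474 CPM with Xist RNA and 0.395, 1.08 and 0.161 CPM with Y-linked RNA. In liver-Flcn-/- livers on chow it was 416, 414 and 399 CPM with Xist RNA and 0.311 and 2.22 CPM with Y-linked RNA. The classes lay far apart in both genotypes. On MCD Cyp2b9 was 112, 124 and 135 CPM with Xist RNA and 253 and 163 CPM with Y-linked RNA in Cre livers, and 228, 228 and 173 CPM against 174, 147 and 142 CPM in liver-Flcn-/- livers. All 11 MCD livers lay between the chow classes, and in Cre mice the Y-linked class was now the higher. The difference between classes was 9.08 on the log2 scale on chow (SE 0.34, adjusted p = 1.63e-12 from edgeR) and −0.16 on MCD (SE 0.20, adjusted p = 0.821). Its change with the diet was −9.24 (adjusted p = 1.42e-11; without the 5 libraries −9.19, adjusted p = 2.74e-07, from edgeR).

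Cyp2b13, the neighbour with the near-identical promoter window (26061497 to 26096197), followed it at lower levels. On chow it was 326, 303 and 242 CPM in Cre livers with Xist RNA and had 0, 2 and 1 counts in those with Y-linked RNA. On MCD the Y-linked class of Cre mice had 24.3 and 20.1 CPM, at least 97.7-fold higher than 3 counts in each chow library of that class, beside 32.7, 15.8 and 18.5 CPM in the Xist class. Cyp2b13 in liver-Flcn-/- livers was 164, 82.9 and 186 CPM against 0 and 0.336 CPM on chow, and 32.1, 39.0 and 16.3 CPM against 6.85, 2.28 and 3.38 CPM on MCD. A smaller difference between classes was still called on MCD (1.41, adjusted p = 0.0399; without the 5 libraries 1.18, adjusted p = 0.118, from edgeR).

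Cyp2b10, the CAR target of the cluster, was 53.9, 40.4 and 25.7 CPM with Xist RNA and 5.93, 3.04 and 0.321 CPM with Y-linked RNA in Cre livers on chow, and 54.7, 83.2 and 69.1 CPM and 11.9 and 8.06 CPM in liver-Flcn-/- livers on chow. On MCD Cyp2b10 was 3.46, 2.93, 0.141, 1.36 and 2.82 CPM in Cre livers and 1.31 to 7.77 CPM (median 3.54) in liver-Flcn-/- livers. Its difference between classes was 3.24 on chow (adjusted p = 2.44e-05) and 1.77 on MCD (adjusted p = 0.121), and the change of that difference did not pass (−1.47, adjusted p = 0.170, all from edgeR).

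**Figure D1:**
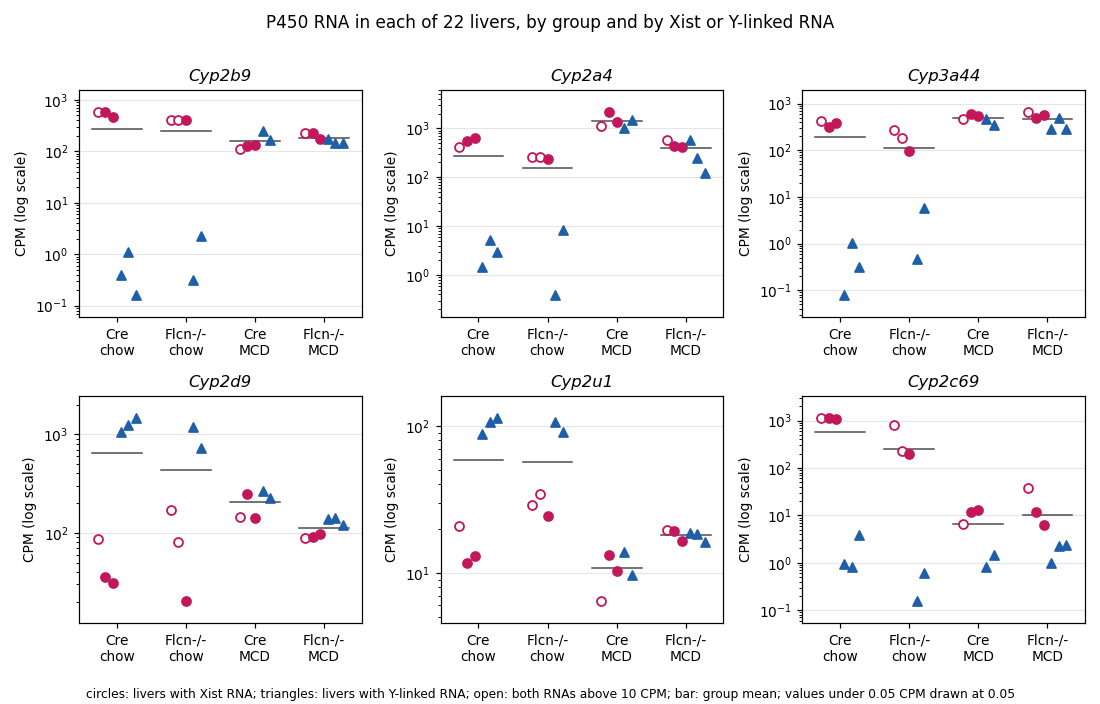
CPM on a log scale of 6 members in each of the 22 livers, grouped by genotype and diet. Circles are livers with Xist RNA, triangles livers with Y-linked RNA, open symbols libraries with both RNAs above 10 CPM, lines group means, and values under 0.05 CPM are drawn at 0.05. The classes stand apart on chow and overlap or lie close on MCD, except for Cyp2c69, which in Cre livers on MCD was 6.67, 11.5 and 12.8 CPM with Xist RNA and 0.797 and 1.46 CPM with Y-linked RNA.

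For Cyp2a4, a steroid hydroxylase, and Cyp3a44, a female-predominant Cyp3a enzyme, the Y-linked class came up to the Xist class on MCD. Cyp2a4 in Cre livers was 418, 553 and 643 CPM with Xist RNA and 1.42, 5.14 and 2.89 CPM with Y-linked RNA on chow, and 1136, 2191 and 1363 CPM against 1016 and 1505 CPM on MCD. Cyp2a4 in liver-Flcn-/- livers was 254, 262 and 236 CPM against 0.389 and 8.26 CPM on chow, and 576, 426 and 415 CPM against 578, 243 and 119 CPM on MCD. Each MCD liver of the Y-linked class was above each chow liver of that class, for both genes. Cyp3a44 in Cre mice was 430.5, 319 and 377 CPM against 0.0791, 1.01 and 0.321 CPM on chow, and 455, 604 and 528 CPM against 476 and 352 CPM on MCD. In liver-Flcn-/- mice it was 274, 178 and 97.3 CPM against 0.467 and 5.78 CPM on chow, and 668, 481 and 578 CPM against 283, 489 and 282 CPM on MCD. The change of the class difference was −6.15 for Cyp2a4 (adjusted p = 8.91e-06) and −7.15 for Cyp3a44 (adjusted p = 2.00e-07), both from edgeR.

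Within Cyp2c, 6 members were higher in the Xist class on chow, and for the same 6 the difference shrank with MCD: Cyp2c37, Cyp2c38, Cyp2c39, Cyp2c40, Cyp2c68 and Cyp2c69. Without the 5 libraries the change for Cyp2c37 missed the threshold (−1.68, adjusted p = 0.0645 from edgeR). For Cyp2c69 the levels on chow were 1149.7, 1128 and 1086 CPM with Xist RNA and 0.949, 0.812 and 3.86 CPM with Y-linked RNA in Cre livers, and 826, 229 and 197 CPM against 0.156 and 0.605 CPM in liver-Flcn-/- livers. On MCD Cyp2c69 was 38.4, 11.7 and 6.35 CPM against 0.985, 2.28 and 2.37 CPM in liver-Flcn-/- livers. Here the level of the Xist class was lower on MCD, the Y-linked class had little on either diet, and the classes did not overlap (MCD difference 3.24, adjusted p = 0.00848 from edgeR and 0.0613 from limma-voom). In Cyp3a16 the Xist class was likewise lower on MCD. It was 149, 244 and 103 CPM against 0.237, 0.338 and 0.241 CPM in Cre livers on chow and 1.07, 0.862 and 2.51 CPM against 0.609 and 0.485 CPM on MCD. In liver-Flcn-/- livers Cyp3a16 was 87.2, 44.1 and 91.5 CPM against 0.156 and 0.0672 CPM on chow and 14.5, 3.66 and 2.24 CPM against 1.67, 6.54 and 1.39 CPM on MCD. The Y-linked class of liver-Flcn-/- mice had at most 2 counts on chow, so its MCD level of Cyp3a16 was at least 14.7-fold higher than 3 counts per library.

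Cyp2d9, a male-predominant testosterone hydroxylase, ran the opposite way. On chow it was 85.7, 35.6 and 31.3 CPM with Xist RNA and 1042, 1244 and 1471 CPM with Y-linked RNA in Cre livers, and 169, 79.9 and 20.4 CPM against 1186 and 729.6 CPM in liver-Flcn-/- livers. On MCD the classes were 144, 246 and 140.0 CPM against 266 and 225 CPM in Cre livers, and 88.1, 91.1 and 98.2 CPM against 138, 140.4 and 121 CPM in liver-Flcn-/- livers. In Cre mice the MCD levels overlapped between classes, and in liver-Flcn-/- mice they stood apart by a small step. The 3 chow livers of the Xist class with the most Cyp2d9 (85.7, 169 and 79.9 CPM) were the 3 that also held Y-linked RNA, whose part in the values was not tested. The class difference was −4.02 on chow (adjusted p = 6.10e-07) and −0.50 on MCD (adjusted p = 0.617), and its change was 3.52 (adjusted p = 4.46e-04; without the 5 libraries 4.97, adjusted p = 1.21e-06), all from edgeR.

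Cyp2u1, a fatty acid hydroxylase, was 20.8, 11.6 and 13.0 CPM with Xist RNA and 88.5, 107 and 114 CPM with Y-linked RNA in Cre livers on chow, and 29.1, 34.6 and 24.3 CPM and 107 and 91.1 CPM in liver-Flcn-/- livers on chow. On MCD Cyp2u1 was 6.42, 13.1, 14.0, 9.65 and 10.3 CPM in Cre livers and 16.2 to 19.7 CPM (median 18.6) in liver-Flcn-/- livers, with the classes overlapping. Its class difference changed by 2.17 (adjusted p = 1.81e-05 from edgeR). Cyp2j6 had the third change of this sign, and it was small (0.47, adjusted p = 0.0366; without the 5 libraries 0.40, adjusted p = 0.254). Of the other members lower in the Xist class on chow, Cyp2f2 (−1.06, adjusted p = 0.00196), Cyp2d12 (−2.44, adjusted p = 8.81e-04) and Cyp2c67 (−0.90, adjusted p = 0.0113; without the 5 libraries −1.0, adjusted p = 0.0563) had no call for the change of the difference.

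**Figure D2:**
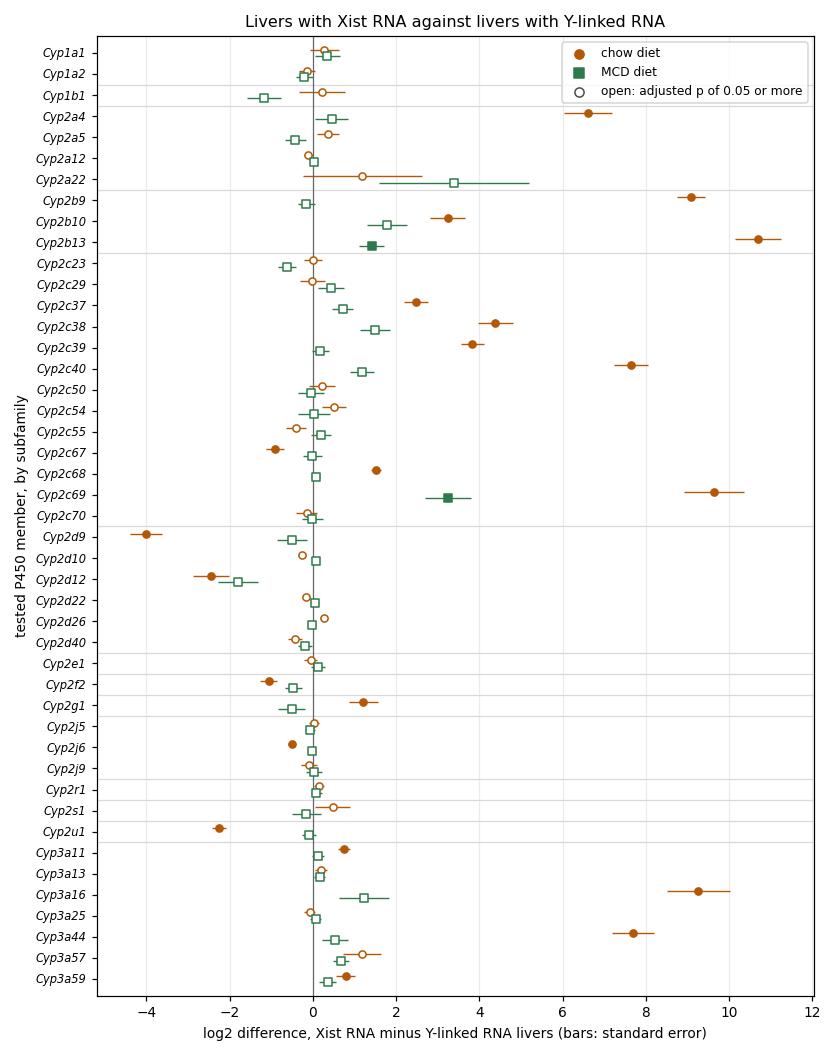
Difference between livers with Xist RNA and livers with Y-linked RNA for the 45 tested members, on a log2 scale with standard errors, averaged over genotypes, on each diet. Filled symbols passed an adjusted p of 0.05: 21 members on chow and 2 on MCD.

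Liver genes outside the P450s that are known to differ between male and female mice were counted beside them. On chow all 6 female-biased genes of the list were higher in the Xist class and all 4 male-biased genes lower. On MCD 2 of the 6, Sult2a1 and Hao2, and 0 of the 4 passed, and the change of the difference passed for 4 of 6 and 2 of 4. With MCD, 2 of the 6 female-biased genes fell in each genotype, and 3 and 4 of the 4 male-biased genes fell in Cre and liver-Flcn-/- mice. Elovl3, a male-biased fatty acid elongase, had a class difference of −4.53 on chow (adjusted p = 1.76e-05) and 0.09 on MCD (adjusted p = 0.979). Cux2, a female-predominant repressor of male genes, had 6.15 on chow (adjusted p = 3.63e-06) and −0.47 on MCD (adjusted p = 0.71), all from edgeR. Cux2 is 1 of 10 genes listed for the growth hormone and STAT5 axis. Of these, 1 (Cux2) was higher and 1 (Bcl6) lower in the Xist class on chow. On MCD 0 differed between classes, and the change of the difference passed for Cux2 alone.

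In Cre mice 9 members were called higher on MCD (background 29.3% of all genes) and 25 lower (28.2%), and the members' median log2 fold change was −0.80, beside 0.01 for all tested genes. Of the 9, Cyp1b1 and Cyp2s1 reached the minimum of 10 counts on average only through Cre livers on MCD, their highest group. In liver-Flcn-/- mice 4 rose (22.5%) and 21 fell (22.5%), with medians of −1.14 and 0.00. In Cyp2c 10 and 8 of 13 members fell and 0 rose in Cre and liver-Flcn-/- mice, and in Cyp2j 3 and 2 of 3 fell. In Cyp3a, 3 of 7 rose in each genotype, while 3 fell in Cre mice and just 1, Cyp3a13, in liver-Flcn-/- mice.

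Because classes of livers differed in their response, the diet was also tested within each class. In Cre livers with Xist RNA 9 members rose (26.3%) and 28 fell (26.1%), and in Cre livers with Y-linked RNA 10 rose (18.3%) and 19 fell (15%). In liver-Flcn-/- livers with Xist RNA 5 rose (20%) and 27 fell (20.8%), and in those with Y-linked RNA 12 rose (9.3%) and 19 fell (11.4%). The pooled test called no change for Cyp2b9 in Cre mice (−0.80, adjusted p = 0.620 from edgeR), where it fell by 2.15 in the Xist class (adjusted p = 1.69e-07) and rose by 8.52 in the Y-linked class (adjusted p = 8.96e-06). Cyp2d9 in Cre mice rose by 1.80 in the Xist class (adjusted p = 0.0164) and fell by 2.33 in the Y-linked class (adjusted p = 7.55e-05), and its pooled change was −1.67 (adjusted p = 0.116). All chow livers of the Y-linked class have the low uniquely mapped share, so within it diet and mapped share cannot be told apart.

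**Figure D3:**
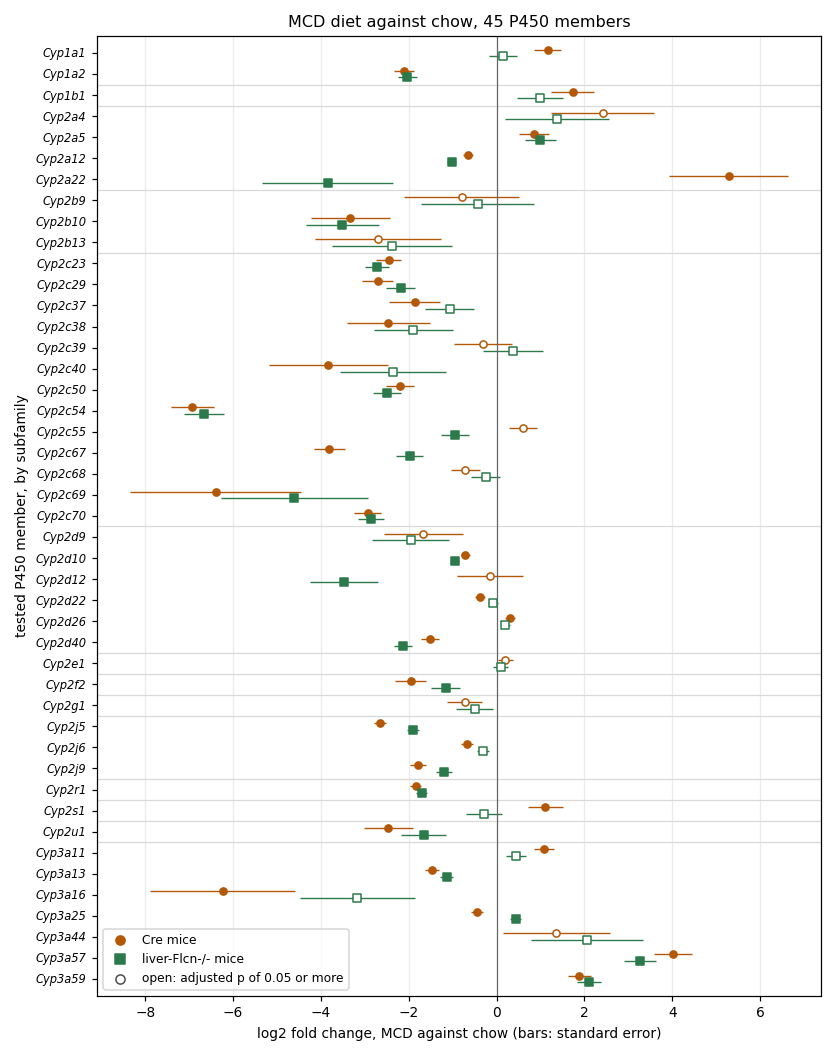
Log2 fold change of MCD against chow with standard error for the 45 tested members, each genotype separately. Filled symbols passed an adjusted p of 0.05, and most of these lie below 0 on the log2 scale: 25 members fell in Cre mice, and 21 did so in liver-Flcn-/- mice.

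Family 1 split by gene. Cyp1a2, the constitutive liver member that oxidises caffeine and arylamines, was 579.5 to 1224 CPM (median 1061) in Cre livers and 978, 1028, 812, 897 and 993 CPM in liver-Flcn-/- livers on chow. On MCD Cyp1a2 was 232, 126, 335, 233 and 215 CPM in Cre livers and 163 to 304 CPM (median 220.0) in liver-Flcn-/- livers. The diets did not overlap, and it fell in both genotypes (−2.11, SE 0.23, adjusted p = 1.06e-07, and −2.03, SE 0.22, adjusted p = 2.01e-07, from edgeR). Cyp1a1, the inducible member, was low throughout: 0.607 to 1.76 CPM (median 1.16) in Cre livers on chow and 2.35, 2.89, 1.92, 2.28 and 3.94 CPM in Cre livers on MCD. Cyp1a1 in liver-Flcn-/- livers was 1.01, 0.416, 0.605, 1.32 and 1.83 CPM on chow and 0.803 to 1.61 CPM (median 1.15) on MCD. Every Cre liver on MCD was above every other liver. Cyp1a1 rose with MCD in Cre mice (1.16, adjusted p = 0.00265), had no call in liver-Flcn-/- mice (0.14, adjusted p = 0.740) and was lower in liver-Flcn-/- than in Cre mice on MCD (−1.20, adjusted p = 0.00766). In a fit of livers with Y-linked RNA alone neither call passed (0.82, adjusted p = 0.0899, for diet, and −0.94, adjusted p = 0.138, for genotype), and with Xist RNA alone the genotype call did not (−1.32, adjusted p = 0.0618). The difference between the diet responses did not pass (−1.02, adjusted p = 0.155, all from edgeR).

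Cyp1b1, which is expressed mainly outside hepatocytes, was 0.185 to 0.791 CPM (median 0.319) in Cre livers on chow and 0.988, 0.733, 3.47, 0.776 and 0.615 CPM on MCD. Cyp1b1 in liver-Flcn-/- livers was 0.156, 0.178, 0.403, 0.551 and 0.323 CPM on chow and 0.239 to 1.01 CPM (median 0.736) on MCD. The highest value belongs to Cre MCD 3, the library with skeletal muscle RNA, whose part in it was not tested. With 8.65 counts on average in the 17 libraries outside Cre MCD it reached the minimum of 10 only through that group, so no weight rests on its call there. It was called higher in Cre mice on MCD (1.73, SE 0.49, adjusted p = 0.00481), and without Cre MCD 3 the change was 0.98 (adjusted p = 0.0460), and in livers with Xist RNA alone 0.93 (adjusted p = 0.184, from edgeR). In liver-Flcn-/- mice it did not pass (0.99, adjusted p = 0.136).

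Cyp2a5, the mouse coumarin 7-hydroxylase, was 245 to 1134 CPM (median 536) in Cre livers on chow and 852, 1019, 1506, 1126 and 879 CPM on MCD. Cyp2a5 in liver-Flcn-/- livers was 108, 236, 77.6, 219 and 348 CPM on chow and 272 to 656 CPM (median 331) on MCD. It was called higher on MCD in both genotypes (0.85, adjusted p = 0.0435, and 1.00, adjusted p = 0.0282, from edgeR), with groups that overlap. The call in Cre mice was lost when any 1 of Cre Chow 1, 2, 3, 4 or 5 or Cre MCD 2, 3 or 4 was left out (adjusted p up to 0.11), and that in liver-Flcn-/- mice without liver-Flcn-/- Chow 1 or 3 or liver-Flcn-/- MCD 1 or 6 (up to 0.0788). Without the 5 libraries holding both RNAs neither passed (0.88, adjusted p = 0.0956, and 1.22, adjusted p = 0.0693). The rise in liver-Flcn-/- mice was 0.39 (adjusted p = 0.311) in livers with Xist RNA alone and 0.56 (adjusted p = 0.150) without the chow libraries of low uniquely mapped share, and in livers with Y-linked RNA alone the change in Cre mice was 0.82 (adjusted p = 0.129). Cyp2a12, a bile acid hydroxylase of the same cluster, fell in both, by 0.65 (adjusted p = 2.61e-05) and by 1.02 (adjusted p = 1.50e-07, from edgeR).

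In the Cyp2c cluster Cyp2c54 (chromosome 19, 40037940 to 40073827, minus strand) had the largest called fall of all members in both genotypes. It was 207 to 321 CPM (median 257) in Cre livers and 137, 423, 143, 208 and 262 CPM in liver-Flcn-/- livers on chow. On MCD Cyp2c54 was 2.31, 0.819, 4.41, 1.12 and 2.20 CPM in Cre livers and 0.603 to 3.68 CPM (median 2.46) in liver-Flcn-/- livers. Every MCD liver was far under every chow liver, in both classes (log2 fold change −6.93, SE 0.49, adjusted p = 2.70e-10 in Cre mice and −6.66, SE 0.45, adjusted p = 3.20e-10 in liver-Flcn-/- mice, from edgeR). Its neighbour Cyp2c50, with which it shares 9.87% of its exon stretches, fell by 2.20 and by 2.50 on the log2 scale. Cyp2c70, the enzyme that makes muricholic acids in mice, fell by 2.94 (adjusted p = 7.10e-08) and by 2.86 (adjusted p = 1.06e-07), and Cyp2c23 by 2.46 and by 2.72.

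Cyp2c29, an arachidonic acid epoxygenase that responds to CAR, was 1129.6 to 2068 CPM (median 1433) in Cre livers on chow and 229.8, 89.0, 271, 214 and 363 CPM on MCD. Cyp2c29 in liver-Flcn-/- livers was 643, 1124, 831, 651 and 1026 CPM on chow and 65.9 to 303 CPM (median 213) on MCD. It fell in both genotypes without overlap (−2.71, SE 0.36, adjusted p = 1.85e-06, and −2.19, SE 0.34, adjusted p = 2.10e-05, from edgeR). Cyp2b10 also fell in both (−3.33, adjusted p = 0.00348, and −3.51, adjusted p = 0.00171). These calls for Cyp2b10 held in the Xist class, and in the Y-linked class neither passed (adjusted p = 0.147 and 0.0823, from edgeR).

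Cyp2c69 fell in both genotypes by the pooled test (−6.40, adjusted p = 0.00783, and −4.61, adjusted p = 0.0289, from edgeR). The call in liver-Flcn-/- mice was lost without liver-Flcn-/- Chow 2 or liver-Flcn-/- MCD 1, 2, 4 or 6 (log2 fold change up to −3.38, adjusted p up to 0.103), as it was without the 5 libraries holding both RNAs (−3.80, adjusted p = 0.149). In livers with Y-linked RNA alone neither call was made (−0.70, adjusted p = 0.488, and 2.23, adjusted p = 0.0899), and both calls were lost by limma-voom (adjusted p = 0.323 and 0.491).

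Of the remaining Cyp2 genes, Cyp2f2, which activates naphthalene, was 755 to 2015 CPM (median 1355) in Cre livers on chow and 343, 204, 546, 424 and 219.7 CPM on MCD. Cyp2f2 in liver-Flcn-/- livers was 1411, 857, 1596, 568 and 934 CPM on chow and 336 to 755 CPM (median 450.4) on MCD. It fell in Cre mice with no overlap and in liver-Flcn-/- mice with overlap (−1.96, adjusted p = 5.76e-05, and −1.16, adjusted p = 0.00626, from edgeR). Without the chow libraries of low uniquely mapped share the change in liver-Flcn-/- mice was −0.71 (adjusted p = 0.0606). Cyp2r1, a vitamin D 25-hydroxylase, was 23.9 ± 2.52 CPM on chow and 6.67 ± 1.14 CPM on MCD in Cre livers (SD, n = 6 and 5), and 19.1 ± 2.53 and 5.88 ± 0.90 CPM in liver-Flcn-/- livers (SD, n = 5 and 6). It fell in both with no overlap (−1.84, adjusted p = 2.52e-10, and −1.70, adjusted p = 9.51e-10, from edgeR). Cyp2u1 fell in the pooled test in both (−2.46, adjusted p = 6.92e-04, and −1.66, adjusted p = 0.0119). In Cre mice its Y-linked class passed by itself (−3.11, adjusted p = 8.96e-06) and its Xist class did not (−0.61, adjusted p = 0.0622, all from edgeR), and without the chow libraries of low uniquely mapped share the pooled change was −0.50 (adjusted p = 0.0597).

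Cyp2e1 was 5243 to 8499.7 CPM (median 6854) in Cre livers on chow and 6831, 6417, 9939.9, 7074 and 9338 CPM on MCD. Cyp2e1 in liver-Flcn-/- livers was 4709, 6724, 4323, 3486 and 4702 CPM on chow and 3982 to 6242 CPM (median 5089.9) on MCD. No difference between diets passed the test in either genotype (0.19, adjusted p = 0.333, and 0.09, adjusted p = 0.694, from edgeR). Cyp2d26, another abundant member, was called higher on MCD in Cre mice by a small step (0.30, adjusted p = 0.0234), and the call was lost without Cre Chow 5 or 6 or Cre MCD 3, 4 or 5 (adjusted p up to 0.0567). The change of Cyp2d26 was 0.13 (adjusted p = 0.487) in livers with Xist RNA alone and 0.21 (adjusted p = 0.168) without the chow libraries of low uniquely mapped share. Cyp2d10 and Cyp2d40 fell in both genotypes.

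In Cyp3a the members went different ways. Cyp3a11, the main mouse counterpart of human CYP3A4 and a PXR target, was 1357 to 1776 CPM (median 1515) in Cre livers on chow and 4323, 2585, 2443, 3027 and 3756 CPM on MCD. Cyp3a11 in liver-Flcn-/- livers was 1039, 2224, 1199, 2477 and 3457 CPM on chow and 2303 to 3612 CPM (median 2854) on MCD. It rose in Cre mice with no overlap (1.08, SE 0.23, adjusted p = 4.25e-04) and had no call in liver-Flcn-/- mice (0.45, adjusted p = 0.121). There the Y-linked class by itself rose (1.38, adjusted p = 0.00104) and the Xist class by itself did not (−0.0004, adjusted p = 0.999). The responses of the genotypes did not differ past the threshold (−0.63, adjusted p = 0.237, all from edgeR). Cyp3a59 rose in both (1.88, adjusted p = 4.29e-06, and 2.10, adjusted p = 3.28e-06), and Cyp3a13 fell in both (−1.48, adjusted p = 8.88e-08, and −1.14, adjusted p = 3.54e-06).

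Cyp3a57 (chromosome 5, 145345279 to 145390926, plus strand) had the largest called rise with MCD in both genotypes, apart from Cyp2a22 in Cre mice, and its level was low. It had 0 to 4 counts in each Cre liver on chow. Its level there was 0 to 0.247 CPM (median 0.161), and it was 2.76, 2.76, 1.27, 1.41 and 4.00 CPM in Cre livers on MCD. Cyp3a57 in liver-Flcn-/- livers was 1.40, 0.416, 0.940, 0.993 and 0.862 CPM on chow and 6.90 to 10.4 CPM (median 8.92) on MCD. No liver-Flcn-/- liver overlapped the Cre livers on the same diet, and no MCD liver overlapped the chow livers of its genotype. It rose with MCD by 4.02 in Cre mice (SE 0.44, adjusted p = 1.62e-07) and by 3.27 in liver-Flcn-/- mice (SE 0.36, adjusted p = 2.81e-07). It was higher in liver-Flcn-/- mice on chow by 2.60 (SE 0.49, adjusted p = 0.00134) and on MCD by 1.85 (SE 0.32, adjusted p = 4.47e-04), all from edgeR. Both genotype calls were also made within each class: 1.62 and 5.21 on chow and 1.53 and 2.65 on MCD in the Xist and Y-linked class. Without the 5 libraries of low uniquely mapped share, which leaves the Xist class on chow, the chow difference was 1.61 (adjusted p = 0.0958).

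Between genotypes few members differed on chow. In liver-Flcn-/- mice 1 member, Cyp3a57, was higher (5.52% of all genes) and 5 were lower (3.1%): Cyp2a5, Cyp2c67, Cyp2d22, Cyp2d40 and Cyp2j5. On MCD 3 were higher (8.06%), Cyp2j9, Cyp3a25 and Cyp3a57, and 9 were lower (8.53%): Cyp1a1, Cyp2a12, Cyp2a22, Cyp2a5, Cyp2c55, Cyp2d10, Cyp2d26, Cyp2d40 and Cyp2e1. The balance on MCD differed by class. With Xist RNA alone 8 were higher (7.12%) and 7 lower (7.88%), and with Y-linked RNA alone 1 was higher (2.06%) and 10 lower (2.82%). On chow 2 were higher (3.28%) and 3 lower (1.16%) with Xist RNA alone, and 1 (2.03%) and 3 (0.377%) with Y-linked RNA alone. The members' median log2 fold change between genotypes was −0.32 on chow and −0.18 on MCD, beside −0.03 and −0.01 for all genes. Cyp2a5, Cyp2d40 and Cyp3a57 were called on both diets. Over all genes the lower calls on chow numbered 436, and 73 without the 5 libraries that hold both Xist and Y-linked RNA. The 5 lower calls of members were among those lost: Cyp2a5 was at −1.78 (adjusted p = 0.0690), Cyp2c67 was at −1.39 (adjusted p = 0.0571), Cyp2d22 was at −0.37 (adjusted p = 0.170), Cyp2d40 was at −0.80 (adjusted p = 0.0919) and Cyp2j5 was at −0.48 (adjusted p = 0.174).

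**Figure D4:**
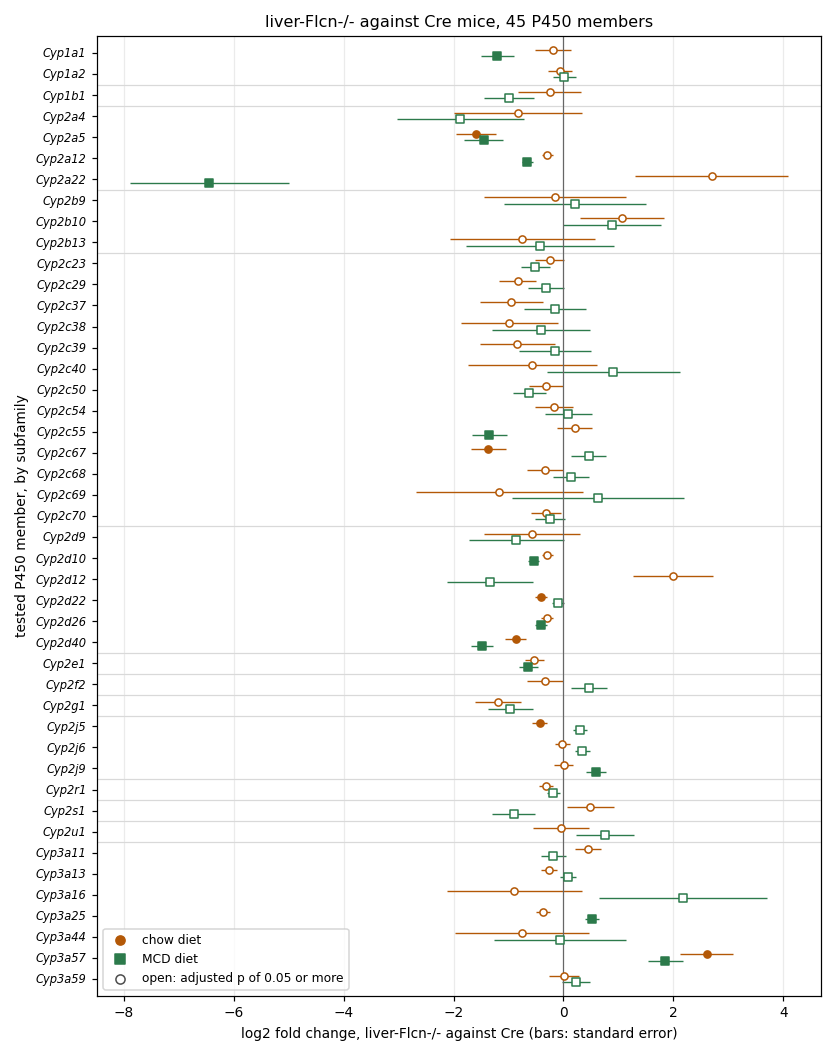
Log2 fold change of liver-Flcn-/- against Cre mice with standard error for the 45 tested members, on chow and on MCD. Filled symbols passed an adjusted p of 0.05 in the fit of all livers: 6 members on chow and 12 on MCD, most of them lower in liver-Flcn-/- mice, and Cyp3a57 higher on both diets. In livers with Xist RNA alone 8 members were higher and 7 lower on MCD.

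Cyp2d40 was lower on both diets. It was 55.8 to 99.8 CPM (median 85.5) in Cre livers on chow and 55.1, 43.6, 54.1, 33.5 and 36 CPM in liver-Flcn-/- livers on chow. On MCD Cyp2d40 was 28.2, 21.7, 33.9, 33.8 and 23.8 CPM in Cre livers and 6.72 to 13.4 CPM (median 11) in liver-Flcn-/- livers. The genotypes did not overlap on either diet (−0.87, SE 0.20, adjusted p = 0.00656 on chow and −1.48, SE 0.20, adjusted p = 2.67e-05 on MCD, from edgeR). The call on MCD was also made in each class (−1.25 and −1.79 in the Xist and Y-linked class), and that on chow was not made in Y-linked livers fitted alone (−0.70, adjusted p = 0.152). For Cyp2a5 the difference was −1.59 on chow (SE 0.37, adjusted p = 0.00776) and −1.45 on MCD (SE 0.35, adjusted p = 0.00706), and on MCD the groups did not overlap. On chow the Y-linked class was called for Cyp2a5 (−3.0, adjusted p = 0.00493) and the Xist class was not (−0.71, adjusted p = 0.205, from edgeR), and without the chow libraries of low uniquely mapped share it was −0.71 (adjusted p = 0.315).

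Cyp2e1 was lower in liver-Flcn-/- mice on MCD (−0.64, SE 0.17, adjusted p = 0.0117 from edgeR), where all 6 liver-Flcn-/- livers lay under all 5 Cre livers. On chow the difference did not pass (−0.53, adjusted p = 0.0551). On MCD the call was made in the Y-linked class (−0.97, adjusted p = 0.0255) and not in the Xist class (−0.37, adjusted p = 0.297). Cyp2a12, Cyp2d10 and Cyp2d26 were lower on MCD, with log2 fold changes of −0.66, −0.54 and −0.41 (adjusted p = 2.25e-04, 0.00104 and 0.0136, from edgeR). In livers with Xist RNA alone Cyp2d26 was at −0.25 (adjusted p = 0.275). Cyp2j9 was higher on MCD by 0.59 (adjusted p = 0.0333), a call lost without Cre MCD 2 or 3 or liver-Flcn-/- MCD 1 or 6 (adjusted p up to 0.0925) and without the 5 libraries (0.69, adjusted p = 0.0627). The chow call of Cyp2d22 (−0.40, adjusted p = 0.0271) was lost without Cre Chow 5 or 6 or liver-Flcn-/- Chow 3 or 4 (up to 0.0985), in Xist livers alone (−0.31, adjusted p = 0.197) and without the chow libraries of low uniquely mapped share (−0.31, adjusted p = 0.320).

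**Figure D5:**
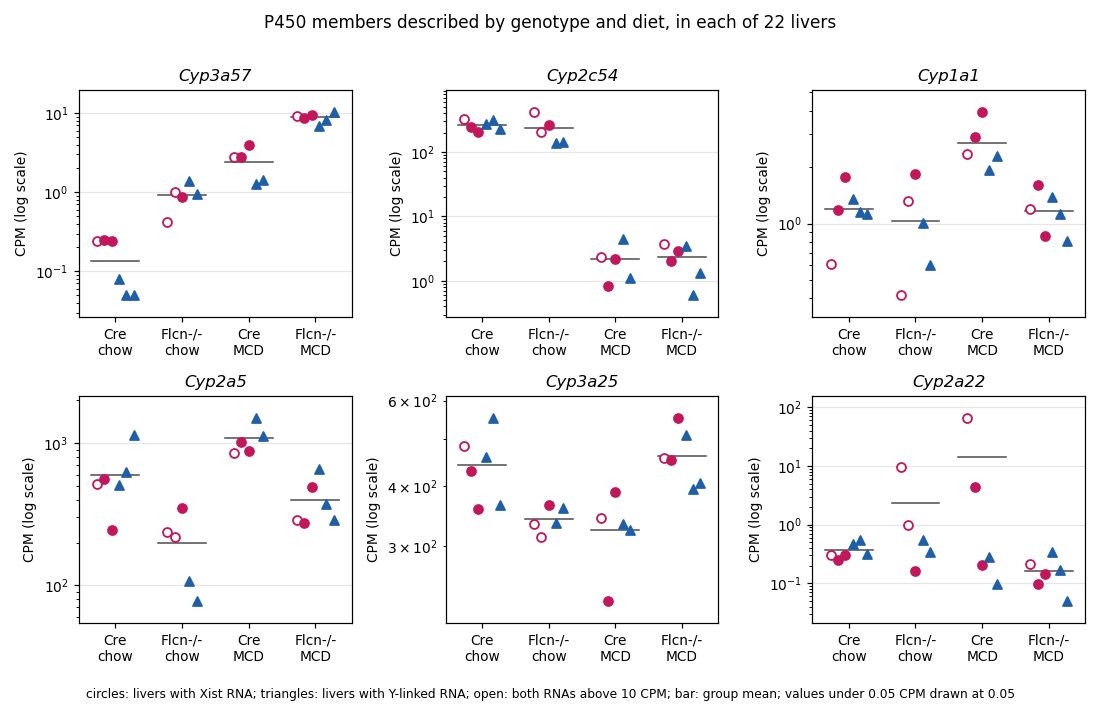
CPM on a log scale of 6 members in each of the 22 livers, with circles for Xist RNA, triangles for Y-linked RNA, open symbols for libraries with both, and lines at group means. Cyp3a57 is higher in liver-Flcn-/- livers and on MCD, Cyp2c54 is lower in every MCD liver, and the means of Cyp2a22 rest on Cre MCD 1 (66.6 CPM) and liver-Flcn-/- Chow 2 (9.74 CPM).

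The response to MCD differed between genotypes for 5 members. It was more positive in liver-Flcn-/- mice for 3 (3.29% of all genes), Cyp2c67, Cyp2j5 and Cyp3a25, and more negative for 2 (5.54%), Cyp2a22 and Cyp2c55. Over all genes 1242 of 14062 had an interaction call, and 84 had one without the 5 libraries with both RNAs, where 0 were members: Cyp2a22 was at −2.86 (adjusted p = 0.381), Cyp2c55 was at −1.29 (adjusted p = 0.265), Cyp2c67 was at 1.74 (adjusted p = 0.114), Cyp2j5 was at 0.75 (adjusted p = 0.135) and Cyp3a25 was at 0.83 (adjusted p = 0.106). Cyp3a25 moved in opposite directions. In Cre livers it was 359 to 551 CPM (median 444) on chow and 343, 231, 333, 324 and 389 CPM on MCD, while liver-Flcn-/- livers had 336, 333, 359.9, 314 and 364 CPM on chow and 393 to 553 CPM (median 455) on MCD. It fell by 0.45 in Cre mice (adjusted p = 0.00491) and rose by 0.44 in liver-Flcn-/- mice (adjusted p = 0.00778). Its interaction was 0.88 (SE 0.18, adjusted p = 0.00496, all from edgeR). The fall in Cre mice passed in neither class fitted alone (−0.40, adjusted p = 0.0733, in Xist livers and −0.46, adjusted p = 0.0803, in Y-linked livers). The rise in liver-Flcn-/- mice was 0.31 (adjusted p = 0.274) in Y-linked livers alone and 0.39 (adjusted p = 0.10) without the 5 libraries holding both RNAs.

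Cyp2j5, an epoxygenase of arachidonic acid, was 752 to 990.1 CPM (median 810.1) on chow and 131, 129.8, 182, 119 and 102 CPM on MCD in Cre livers, and 514, 719, 626, 571 and 645 CPM on chow and 125 to 180.3 CPM (median 171) on MCD in liver-Flcn-/- livers. It fell in both with no overlap, and less in liver-Flcn-/- mice (−1.91 against −2.65, interaction 0.74, adjusted p = 0.0157 from edgeR). On chow it was lower in liver-Flcn-/- mice (−0.44, adjusted p = 0.0387), a call lost without Cre Chow 1, 2 or 5 or liver-Flcn-/- Chow 1, 3, 4 or 5 (adjusted p up to 0.109). That difference was −0.29 (adjusted p = 0.219) in Xist livers alone and −0.29 (adjusted p = 0.441) without the chow libraries of low uniquely mapped share, and without the latter the interaction was 0.60 (adjusted p = 0.117). Cyp2c67 was 176 to 530.1 CPM (median 287) in Cre livers on chow and 21, 18.0, 29.9, 21.6 and 22.4 CPM on MCD. Cyp2c67 in liver-Flcn-/- livers was 125, 155, 173, 66.7 and 93.1 CPM on chow and 18.8 to 44.4 CPM (median 31.3) on MCD. It fell in both genotypes with no overlap, and the chow levels of the genotypes also did not overlap (interaction 1.83, SE 0.44, adjusted p = 0.0145 from edgeR). Its chow difference was −0.80 (adjusted p = 0.0873) in Xist livers alone, and without the chow libraries of low uniquely mapped share it was −0.80 (adjusted p = 0.198), with an interaction of 1.26 (adjusted p = 0.0701).

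Cyp2c55 was 3.33 to 14.8 CPM (median 6.39) in Cre livers on chow and 18.7, 11.1, 8.39, 11.8 and 8.71 CPM on MCD, and in liver-Flcn-/- livers it was 8.02, 7.43, 5.64, 9.48 and 13.9 CPM on chow and 2.91 to 6.15 CPM (median 4.66) on MCD. It fell in liver-Flcn-/- mice (−0.95, adjusted p = 0.0202; 0.0845 without liver-Flcn-/- Chow 5; −1.03, adjusted p = 0.0566, without the 5 libraries; −0.61, adjusted p = 0.167, in Y-linked livers alone) and was lower than in Cre mice on MCD (−1.35, adjusted p = 0.00576; without the 5 libraries −1.14, adjusted p = 0.0602). Its interaction (−1.55, adjusted p = 0.0365) was lost in 9 of the 22 fits with 1 library left out: without Cre Chow 2 or 4, Cre MCD 1 or 4, liver-Flcn-/- Chow 4 or 5 or liver-Flcn-/- MCD 1, 3 or 6 (adjusted p up to 0.0833, from edgeR). Cyp2d12 was 0.183 to 3.64 CPM (median 1.25) in Cre livers on chow and 1.28, 0.474, 3.56, 1.65 and 0.205 CPM on MCD, and 17.9, 2.91, 7.46, 2.76 and 1.19 CPM on chow and 0.143 to 1.46 CPM (median 0.364) on MCD in liver-Flcn-/- livers. It fell in liver-Flcn-/- mice (−3.48, adjusted p = 9.33e-04; −2.64, adjusted p = 0.00625, without liver-Flcn-/- Chow 1), and its interaction did not pass (−3.33, adjusted p = 0.0549, from edgeR).

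Single libraries decided calls of Cyp2a22, a member of the Cyp2a cluster (chromosome 7, 26931631 to 26939384, minus strand) that shares 9.21% of its exon stretches with Cyp2a12. It was 66.6, 4.35, 0.281, 0.0970 and 0.205 CPM in Cre livers on MCD and 0.247 to 0.541 CPM (median 0.313) in Cre livers on chow. Cyp2a22 in liver-Flcn-/- livers was 0.545, 9.74, 0.336, 0.993 and 0.162 CPM on chow and 0 to 0.345 CPM (median 0.158) on MCD. The medians of all 4 groups were under 1 CPM, and 3 livers were above it: Cre MCD 1, liver-Flcn-/- Chow 2 and Cre MCD 2. Cre MCD 1 and liver-Flcn-/- Chow 2 were also the 2 Xist livers with the most Y-linked RNA, whose part in the values was not tested. By edgeR it was called higher on MCD in Cre mice (5.29, SE 1.35, adjusted p = 0.00216) and lower in liver-Flcn-/- mice on MCD (−6.44, adjusted p = 0.00388), with an interaction of −9.14 (adjusted p = 0.00766).

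Without Cre MCD 1 the Cyp2a22 call for diet in Cre mice was lost (1.77, adjusted p = 0.155), as was the genotype call on MCD (−2.93, adjusted p = 0.0834), while the interaction was −5.61 (adjusted p = 0.0287). The fall with MCD in liver-Flcn-/- mice (−3.85, adjusted p = 0.0388) was lost without liver-Flcn-/- Chow 2 or liver-Flcn-/- MCD 2, 3, 4, 5 or 6, with −1.65 and an adjusted p of 0.449 without liver-Flcn-/- Chow 2. Without the 5 libraries holding both RNAs the diet change of Cyp2a22 was 1.72 (adjusted p = 0.109) in Cre mice and −1.13 (adjusted p = 0.503) in liver-Flcn-/- mice, and the genotype difference on MCD −3.02 (adjusted p = 0.0520). limma-voom made none of these 4 calls (adjusted p = 0.316, 0.216, 0.278 and 0.271 in the same order). A two-sided exact permutation test on log2 CPM gave p = 0.355 for the diet in Cre mice, p = 0.0736 for the genotype on MCD and p = 0.0195 for the diet in liver-Flcn-/- mice, where 0.00216 is the smallest p that 6 against 5 livers allow.

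The partners of the P450s moved in part with them. Por, the oxidoreductase that reduces these enzymes, was 149 to 316 CPM (median 182) in Cre livers on chow and 365, 373, 464, 382 and 361 CPM on MCD. Por in liver-Flcn-/- livers was 83.9, 182, 73.3, 133 and 159.6 CPM on chow and 197 to 471 CPM (median 274) on MCD. It rose in both genotypes with no overlap between diets (0.94, adjusted p = 0.00241, and 1.22, adjusted p = 4.68e-04, from edgeR). The other 4 of 5 redox partners, Cyb5a, Cyb5b, Cyb5r3 and Pgrmc1, fell in both. On MCD Cyb5r3 (−0.31, adjusted p = 0.0293) and Pgrmc1 (−0.36, adjusted p = 0.0117, from edgeR) were lower in liver-Flcn-/- mice, and on chow 0 of the 5 differed between genotypes. Of 8 genes of haem synthesis Cre mice had 0 higher and 3 lower on MCD, and liver-Flcn-/- mice 1 higher and 1 lower.

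Of 13 receptors and liver transcription factors Cre mice had 1 higher and 8 lower on MCD, and liver-Flcn-/- mice 1 higher and 6 lower, while 0 differed between genotypes on either diet. Hnf4a, a general driver of hepatocyte genes, fell in Cre mice (−0.68, adjusted p = 7.01e-05) and had no call in liver-Flcn-/- mice (−0.20, adjusted p = 0.182). Nr1i2, which encodes PXR, fell by 0.27 in Cre mice (adjusted p = 0.0371), and Nr1i3, which encodes CAR, had no call for diet or genotype. Between classes on chow Nr1i3 was higher in livers with Xist RNA (0.71, adjusted p = 0.0364), as were Foxa2 of the same list and the receptor targets Nqo1 and Ugt1a6a, while Cebpb was lower. On MCD 0 of the 13 and 0 of the 4 targets differed between classes, and the class difference changed upward for Cebpb and downward for Nqo1. Ahr fell in liver-Flcn-/- mice (−0.76, adjusted p = 0.00130), and in Cre mice its change did not pass (−0.39, adjusted p = 0.0608, all from edgeR). Of 4 tested targets of the aryl hydrocarbon receptor outside the P450s, Ugt1a6a and Ugt1a6b fell in both genotypes and Nqo1 rose in Cre mice.

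In the growth hormone and STAT5 axis Cre mice had 6 of 10 genes lower on MCD, liver-Flcn-/- mice had 5, and 0 were higher. Stat5b was 46.7 to 77.9 CPM (median 69.0) in Cre livers on chow and 30.1, 25.5, 33.0, 31.6 and 29.0 CPM on MCD, and in liver-Flcn-/- livers it was 74.1, 77.8, 59.8, 74.8 and 61.7 CPM on chow and 43.6 to 68.0 CPM (median 49.0) on MCD. It fell in both (−1.17, adjusted p = 1.21e-07, and −0.42, adjusted p = 0.00776), and less in liver-Flcn-/- mice (interaction 0.75, adjusted p = 0.0118, from edgeR). Igf1, a growth hormone target of hepatocytes, fell by 1.98 and by 1.38. On MCD Ghr, Stat5a and Stat5b were higher in liver-Flcn-/- mice.

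Markers of the zones and cells of the liver were counted beside these results, and their part in them was not tested. Of 9 pericentral genes, the zone where many P450s are highest, Cre mice had 1 higher and 4 lower on MCD, and liver-Flcn-/- mice 0 higher and 8 lower. Of 6 periportal genes 0 rose and 3 fell, and 1 rose and 3 fell, in the same order of genotypes. Of 6 hepatocyte genes 5 fell in Cre mice and all 6 in liver-Flcn-/- mice. All 15 skeletal muscle genes rose in Cre mice, with the highest sum in Cre MCD 3, and 14 were lower in liver-Flcn-/- mice on MCD. Of 6 stellate cell genes 4 rose in Cre mice, 1 (Dcn) rose in liver-Flcn-/- mice, and 3 were lower in liver-Flcn-/- mice on MCD. Of these genes Des, for desmin, is also a muscle gene, and it had 3118 counts in Cre MCD 3 and 117 to 315 in the other Cre livers on MCD. Of 6 macrophage genes Cre mice had 2 higher and 1 lower, and liver-Flcn-/- mice 0 higher and 3 lower. Of 5 endothelial genes 1 rose and 2 fell, and 0 rose and 3 fell. Of 5 cholangiocyte genes 3 rose in Cre mice, and liver-Flcn-/- mice had 0 calls. Of 4 tested lymphocyte genes 0 changed in Cre mice and 3 fell in liver-Flcn-/- mice. The 1 tested pancreatic acinar gene, Ctrb1, rose in Cre mice. The acinar sum was 9.02 CPM in Cre MCD 5 and 0.535 to 2.62 CPM in the other Cre livers on MCD. Of 2 tested intestinal genes 1 rose in Cre mice, and both rose in liver-Flcn-/- mice. Between genotypes on MCD, where 9 members were lower in liver-Flcn-/- mice, 3 of the 9 pericentral genes (Rhbg, Lgr5 and Gulo) were lower and 0 higher. Of the 6 periportal genes 3 (Hal, Hsd17b13 and Cdh1) were higher and Pck1 was lower, and of the macrophage genes Cd68 and Lyz2 were lower. Stab2 of the endothelial and Sox9 of the cholangiocyte genes were higher, and Tat of the hepatocyte genes was lower. Between genotypes on chow Pck1 (periportal) and Ttr (hepatocyte) were lower, and Cdh1 (periportal), Stab2 (endothelial) and Spp1 (cholangiocyte) were higher in liver-Flcn-/- mice, with 0 calls among the pericentral, stellate, macrophage and lymphocyte genes. The interaction was negative for Rhbg and Gulo (pericentral), Cd68 and Lyz2 (macrophage), Col1a1 and Pdgfrb (stellate) and Spp1, and positive for Sds and Hsd17b13 (periportal) and Ttr.

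The 13 members under the minimum count had means from 0 to 6.55 counts and were not tested: Cyp2b19, Cyp2b23, Cyp2c65, Cyp2c66, Cyp2d11, Cyp2d34, Cyp2j11, Cyp2j12, Cyp2j13, Cyp2j7, Cyp2j8, Cyp2t4 and Cyp2w1. Cyp2d11 had the highest mean, and Cyp2c66 and Cyp2j12 had 0 counts in all 22 libraries, whose totals ran from 13751347 to 21144388 counts.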

How the data were processed

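Liver RNA of 22 mice was sequenced, 1 library per mouse. The authors deposited raw counts per gene, made with bcl2fastq, Trimmomatic, STAR on GRCm38 and HTSeq. Tool versions, annotation release, strand setting and any collapsing of molecular identifiers are not given in the sources used here. Replicates are separate mice. Totals were 13751347 to 21144388 counts, and no within-group pair of libraries was identical (0 of 50, Spearman 0.909 to 0.926).

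Counts were fitted with edgeR 4.0.16 in R 4.3.3: TMM factors, 1 quasi-likelihood fit of 4 groups, genes with a mean of at least 10 counts, and Benjamini-Hochberg adjustment over 14062 genes at 0.05. The classes by Xist and Y-linked RNA were tested in 1 fit of 8 cells, chosen after seeing the data, and a library was taken to hold both RNAs where each was above 10 CPM. limma 3.58.1 and DESeq2 1.42.0 served as alternatives, beside other filters and scalings, a replicate block and leaving out libraries. In simulated counts for MCD against chow in Cre mice, with 14062 genes and 200 changed, 97.1% of 4-fold and 72.9% of 2-fold changes were recovered. The shares were 90.9% and 71.1% for the diet in liver-Flcn-/- mice, and 93.2% and 69.1% for the genotype on chow. They were 92.7% and 78.9% for the genotype on MCD, 87% and 53% for the interaction, and 94.1% and 67.7% for the classes on chow. Of the calls 5%, 1.20%, 6.32%, 5.46%, 4.76% and 4.14% were false, in the same order. The data had 8089 calls for the diet in Cre mice, far more than the 200 changed genes, so the shares need not hold there.

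The members and gene lists were chosen with earlier results of these data known. Values by liver were given for members with a mean of at least 1 CPM that had the 5 largest called changes in each of the 5 comparisons of diet, genotype and their interaction, and for 11 members that stand for the subfamilies. The rule did not cover the classes, for which members were chosen after their values were seen. Uniquely mapped shares were used only as a limit of 75%, from the study's quality sheet.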

Additional observations from a re-analysis of the deposited data

Results flagged for a closer look

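Of 180 combinations of member and group tested, 8 had 1 liver that stood apart from the rest by Dixon's criterion, which chance alone meets in about 1 in 20 groups. In Cre MCD 1 Cyp2a22 was 66.6 CPM, with the other Cre livers on MCD at 0.0970 to 4.35 CPM. In liver-Flcn-/- Chow 2 Cyp2a22 was 9.74 CPM (others 0.162 to 0.993), Cyp2c69 was 826 CPM (others 0.156 to 229) and Cyp2g1 was 5.53 CPM (others 1.01 to 2.10). In liver-Flcn-/- MCD 3 Cyp2c69 was 38.4 CPM (others 0.985 to 11.7) and Cyp2d26 was 1140.3 CPM (others 819.7 to 915). Cyp1b1 was 3.47 CPM in Cre MCD 3 (others 0.615 to 0.988), and Cyp3a16 was 2.51 CPM in Cre MCD 5 (others 0.485 to 1.07). Of these 8 values 6 lie in Cre MCD 1, liver-Flcn-/- Chow 2 and liver-Flcn-/- MCD 3, which hold both Xist and Y-linked RNA. Skeletal muscle genes summed to 89.0 CPM and pancreatic acinar genes to 24.1 CPM in liver-Flcn-/- MCD 3, and muscle genes to 3627 CPM in Cre MCD 3. The part of these RNAs in the values was not tested.

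The change with MCD differed between genotypes by the interaction term for Cyp2a22 (−9.14), Cyp2c55 (−1.55), Cyp2c67 (1.83), Cyp2j5 (0.74) and Cyp3a25 (0.88), on the log2 scale. The difference between livers with Xist RNA and livers with Y-linked RNA changed with MCD, on the same scale, for Cyp2a4 (−6.15), Cyp2b9 (−9.24), Cyp2b13 (−9.28), Cyp2c37 (−1.76), Cyp2c38 (−2.90), Cyp2c39 (−3.65), Cyp2c40 (−6.47), Cyp2c68 (−1.44), Cyp2c69 (−6.39), Cyp2g1 (−1.72), Cyp3a16 (−8.04) and Cyp3a44 (−7.15), which were higher in the Xist class on chow, and for Cyp2d9 (3.52), Cyp2j6 (0.47) and Cyp2u1 (2.17), which were lower in it. Both tests are from edgeR with an adjusted p under 0.05. Without the 5 libraries that hold both RNAs none of these 5 interactions passed (adjusted p = 0.381, 0.265, 0.114, 0.135 and 0.106 in the order given), and the change of the class difference did not pass for Cyp2c37 (−1.68, adjusted p = 0.0645), Cyp2g1 (−1.68, adjusted p = 0.0590) and Cyp2j6 (0.40, adjusted p = 0.254). The chow differences of Cyp2g1 (0.89, adjusted p = 0.171) and Cyp2j6 (−0.44, adjusted p = 0.0975) did not pass either.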

How the results depend on the processing

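The counts of called members were 34 and 25 for diet in Cre and liver-Flcn-/- mice, 6 and 12 for genotype on chow and MCD, 5 for the interaction, and 21, 2 and 15 for the classes on chow, on MCD and their change. The chow genotype count was 10 with DESeq2 and 1 without the 5 libraries holding both Xist and Y-linked RNA, beside 1517 and 463 calls over all genes (1212 in the reported fit). The interaction count was 0 in livers with Y-linked RNA alone, 10 in livers with Xist RNA alone and 0 without the 5 libraries, beside 62, 1212 and 84 calls over all genes in the same order and 1242 in the reported fit. Leaving out 1 library gave 31 to 35, 22 to 27, 4 to 8, 11 to 13 and 4 to 6 members, and 18 to 22, 0 to 4 and 13 to 17 for the classes. Over all genes these were 7620 to 8209, 5616 to 6586, 670 to 1429, 1773 to 2460 and 819 to 1426, and 1016 to 1807, 11 to 270 and 638 to 1364. The class count on MCD was 0 without Cre MCD 3, 4 without Cre MCD 1, and 1 without Cre Chow 2, 3, 4 or 5, Cre MCD 2 or 5, or liver-Flcn-/- MCD 2, 3, 4 or 5. The cause of these changes was not tested.

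Same-numbered livers did not deviate together on average (mean correlation 0.00613 over 31 pairs, from −0.551 to 0.470, 7 above 0.1). Between genotypes on chow the correlation was 0.431, 0.350 and 0.470 for numbers 1, 2 and 4, whose livers shared a class. It was −0.551 and −0.393 for numbers 3 and 5, whose livers did not. The deviations were not adjusted for class, so the mean does not settle whether the numbers pair the mice. With the replicate block the counts were 30, 24, 5, 11 and 5, beside 7733, 5887, 869, 1872 and 552 over all genes, which in the reported fit were 8089, 6328, 1212, 2333 and 1242.

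Of 5572 values of single members recomputed, 5316 kept their side of the threshold, 94 gained a call, 148 lost one and 14 changed sign with a call in either fit. Of the 5316, 154 had the other sign with no call in either fit, such as Cyp2d9 with diet in liver-Flcn-/- mice (−1.95, and 0.33 without the chow libraries of low uniquely mapped share). In Cre livers with Y-linked RNA alone the diet changes that turned were 1.41 for Cyp2c40, 1.00 for Cyp3a16, 8.10 for Cyp2b13, 8.52 for Cyp2b9 and −1.19 for Cyp2a22 on the log2 scale. In liver-Flcn-/- livers with Y-linked RNA alone they were 4.46 for Cyp2c40, 4.78 for Cyp3a16, 4.47 for Cyp2b13, 6.85 for Cyp2b9 and 2.23 for Cyp2c69. For Cyp2d9 the diet change in Cre mice was 1.80 in livers with Xist RNA alone and 2.01 without the chow libraries of low uniquely mapped share. For Cyp2u1 the chow genotype difference was 0.95 in both of these settings. These settings differ from the reported fit in which classes of livers they hold.

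Cyp3a57 in Cre livers on chow, Cyp2b13 and Cyp3a16 in chow livers with Y-linked RNA, and Cyp2a22 in most livers rest on a few counts, so their fold changes depend on the prior count.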
